A study of Mus musculus with 12 samples.

Results

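The 37 genes described here are type I interferon stimulated genes. The rule chose them by their names and holds no measured value, but it was written with earlier results of these data known. All 37 were found among the 55487 genes of the table and were abundant enough to be tested. They were grouped by known role into 4 sensors of foreign or misplaced nucleic acid, 15 antiviral effectors, 7 feedback genes, 5 genes of signalling and 6 others. Expression was measured by bulk RNA-seq in mouse monocytes labelled Ly6C+ (Ly6C marks the classical type at the cell surface), in 12 libraries that form 4 groups of 3. The KO group had the genotype KO and came from fetal liver at E13.5, an embryonic day. The Mixed group had the genotype WT and came from fetal liver at E15.5. The BM group had the genotype WT and came from bone marrow, with no age given. The WT group had the genotype WT and came from fetal liver, WT 1 at E13.5 and WT 2 and WT 3 at E15.5. Which allele KO stands for, and what "Mixed" means, no source used here says. The title of the series speaks of cMaf and Zeb2. Its design text speaks of Z165KO mice and tissue macrophages, whereas the labelled cells are monocytes.

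Type I interferons, IFN-beta and the IFN-alphas, bind a receptor made of IFNAR1 and IFNAR2. The kinases JAK1 and TYK2 then phosphorylate STAT2, which acts with IRF9 in the complex ISGF3 to bind interferon-stimulated response elements in promoters. The induced genes sense viral nucleic acid, block steps of viral replication, and feed back on the pathway, and monocytes are known as cells in which these genes respond strongly.

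Because ISGF3 binds DNA, the promoters of the members were read for the core of its element, which is GAAA, any 2 bases and GAAA again, on either strand. RefSeq (GRCm38.p6) gave a promoter, from 250 bases before to 50 bases after the start, for 26 of the 37 members. The core was present in 13 of these 26 genes (50%), against 3.99% of 27025 genes with a promoter of the same length. The longer form, the core followed by CT, was present in 7 of the 26 (26.9%), against 0.303% of all genes. By role, the core was found in 2 of 2 sensors, 8 of 12 effectors, 2 of 5 feedback genes, 1 of 3 signalling genes and 0 of 4 others. The promoters of 5 members, given as the 200 bases before the start and read 5′ to 3′ on the gene's own strand, cover the range of these matches among members that the results turn on, with every match to the core in capitals. They lie at chr4:156200819-156201018 (minus strand) for Isg15, chr19:34640689-34640888 (plus strand) for Ifit1, chr5:120777660-120777859 (minus strand) for Oas3, chr12:26456453-26456652 (minus strand) for Rsad2 and chr5:114923040-114923239 (plus strand) for Oasl1.
Isg15: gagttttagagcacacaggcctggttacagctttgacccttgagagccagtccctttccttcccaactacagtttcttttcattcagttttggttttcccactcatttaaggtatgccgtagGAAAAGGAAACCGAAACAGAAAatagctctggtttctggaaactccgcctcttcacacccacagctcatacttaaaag
Ifit1: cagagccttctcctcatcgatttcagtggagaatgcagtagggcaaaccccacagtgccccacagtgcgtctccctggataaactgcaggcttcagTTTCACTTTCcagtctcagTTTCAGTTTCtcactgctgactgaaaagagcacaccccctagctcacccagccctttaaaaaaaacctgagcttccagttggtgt
Oas3: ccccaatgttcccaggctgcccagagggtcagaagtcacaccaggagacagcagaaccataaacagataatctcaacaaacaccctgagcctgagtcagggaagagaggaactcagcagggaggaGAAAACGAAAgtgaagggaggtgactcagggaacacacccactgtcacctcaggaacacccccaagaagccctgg
Rsad2: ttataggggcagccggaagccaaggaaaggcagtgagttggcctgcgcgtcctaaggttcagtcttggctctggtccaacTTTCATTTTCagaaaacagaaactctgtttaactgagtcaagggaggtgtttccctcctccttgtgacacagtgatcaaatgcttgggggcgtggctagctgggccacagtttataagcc
Oasl1: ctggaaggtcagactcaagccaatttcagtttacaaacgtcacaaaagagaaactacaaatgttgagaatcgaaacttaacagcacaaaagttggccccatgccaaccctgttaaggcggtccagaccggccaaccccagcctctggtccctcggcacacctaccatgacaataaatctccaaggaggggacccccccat
Isg15 held 3 overlapping cores in a single run, Ifit1 held 2 on the opposite strand, Oas3 and Rsad2 held 1 each, and Oasl1 held none. A match is a description of the letters and not a site in use, and a promoter without a match in this window may hold one elsewhere.

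The libraries held 17384911 to 24473471 counts. Levels are given as counts per 1e+06 of TMM-scaled library size (CPM), and fold changes come from edgeR's quasi-likelihood test with Benjamini-Hochberg adjustment over the 14618 genes tested; a gene is called where its adjusted p is under 0.05. Nothing in the labels ties a group's libraries to separate animals, and the p-values therefore cover the spread between libraries, which may be technical. Zeb2, named in the series title, had 23.8, 20.1 and 22.5 CPM in KO, 179, 159 and 165 in Mixed, 311, 319.7 and 338 in BM and 141, 143 and 165 in WT, so that the KO libraries stood apart. In bulk samples, fewer cells of a type and less RNA per cell cannot be told apart.

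All 37 members were higher in KO than in WT. Genes called higher were 18.2% of all tested genes in this comparison, and those called in either direction were 38.1%. The median log2 fold change of the members was 1.19, a 2.28-fold difference, against -0.03 for all tested genes, and the members ranged from 0.43 (Tor3a) to 2.85 (Oasl1). At least 2-fold higher were 24 of the 37, against 6.38% of all tested genes. On CPM, every KO library lay above every WT library for all 37 members, a separation seen in 22.1% of all tested genes. On TPM, the KO and WT libraries overlapped for Eif2ak2 and Herc6. In BM, 35 members were higher than in WT (32.1% of all tested genes), 1 was lower (31.9%) and 1 was not called (64% of all tested genes were called in either direction), with a median log2 fold change of 1.30 against 0.00 for all tested genes. At least 2-fold higher in BM were 25 members, against 12.6% of all tested genes. All 3 BM libraries lay above all WT libraries in 35 members (34.1% of all tested genes) and below them in 2 (34%). In Mixed, 0 members were higher than in WT by edgeR (4.21% of all tested genes) and 5 were lower (8.07% of all tested genes were called in either direction), with 12 members at an unadjusted p under 0.05. DESeq2 called 1 higher and 8 lower, where 14.6% of genes given an adjusted p were called in either direction.

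**Figure D1:**
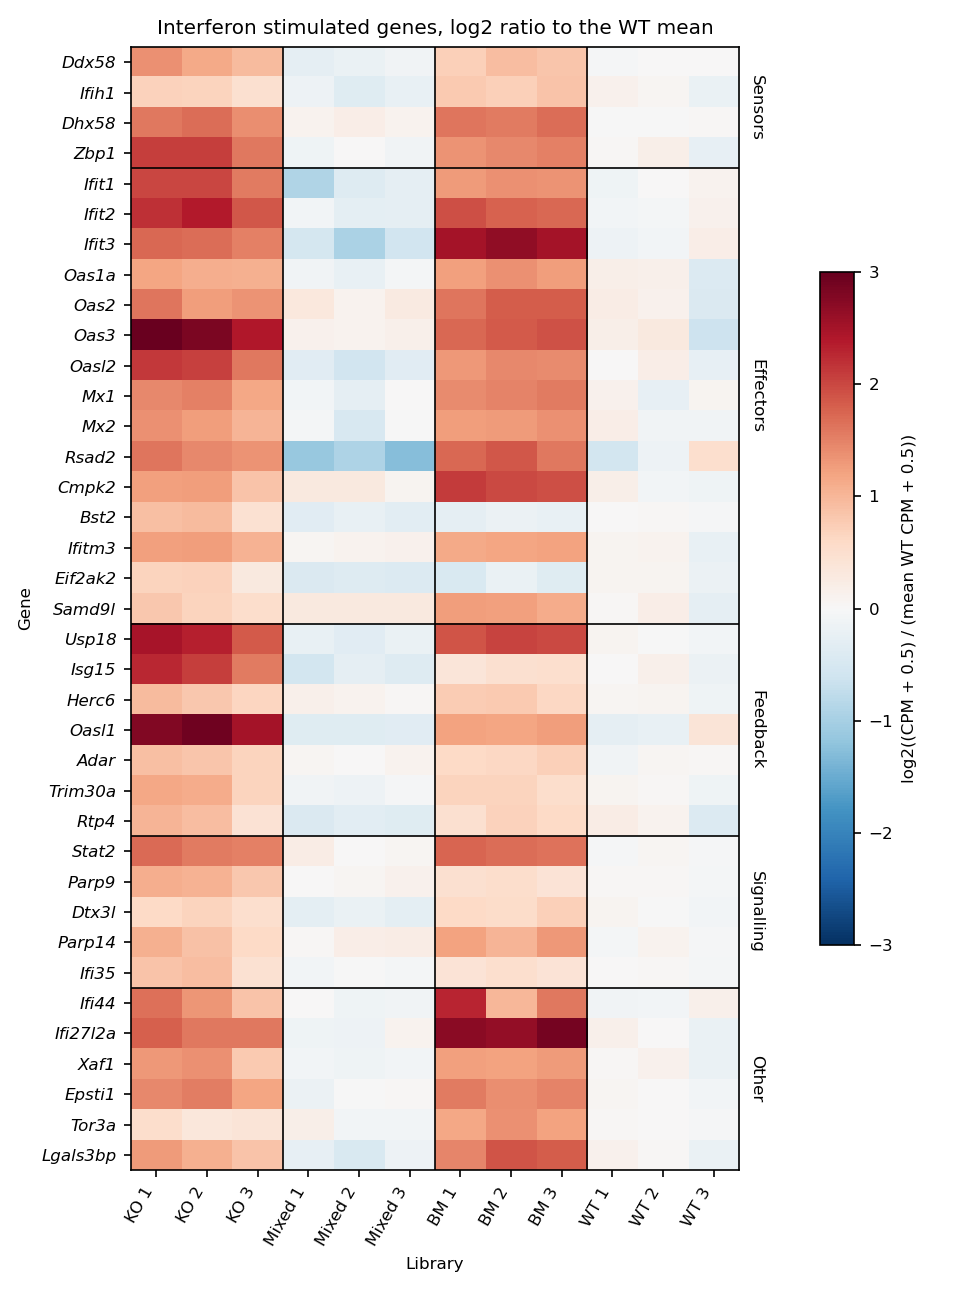
Each cell gives log2 of CPM plus 0.5 over the WT mean plus 0.5 for a member (down the page, by role) in a library (across, KO, Mixed, BM and WT with 3 libraries each), with red above and blue below the WT mean. The KO and BM columns are red for nearly all of the 37 members. Mixed and WT stay close to 0 for most members, with the Mixed columns blue for Rsad2, Ifit3 and Ifit1.

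Summed over the 37 members, the level was 4845, 4737 and 3906 CPM in KO, 1897, 1902 and 1945 in Mixed, 4258, 4396 and 4402 in BM and 2035, 2057 and 1757 in WT. KO and BM were thus well separated from Mixed and WT in every library. Within KO, the third library had the lowest value in 35 of 37 members, while it was lowest in 31.8% of all tested genes. Within WT, the third library was lowest in 25 of 37 members, against 33% of all tested genes. Leaving out any library left all 37 members called higher in KO than in WT.

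The embryonic day differs between KO and most of WT. Only the WT group holds both days, so a fit that adjusts for day sets KO against WT 1 alone. On CPM, all 3 KO libraries lay above WT 1, the WT library of the same embryonic day, for all 37 members, with the smallest ratio 1.15 (Eif2ak2). On TPM, Eif2ak2 was lower in KO 3 (30.4) than in WT 1 (34.3). WT 1 itself was above both later WT libraries in 14 members, between them in 12 and below both in 11. With embryonic day as a covariate in the fetal liver fit, 36 of 37 members were higher in KO, and 26.3% of the 14112 genes of that fit were called in either direction. The exception was Rtp4, whose log2 fold change was 0.61 (adjusted p = 0.145) in that fit and 0.82 (adjusted p = 0.00275) without the covariate.

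The sensors are the RNA helicases RIG-I (Ddx58), MDA5 (Ifih1) and LGP2 (Dhx58) and the Z-form nucleic acid sensor Zbp1, and all 4 were higher in KO and in BM than in WT. Zbp1 had 96.4, 96.1 and 68.6 CPM in KO, 20.6, 22.7 and 21.0 in Mixed, 58.2, 61.6 and 64.9 in BM and 23.1, 25.5 and 19.1 in WT. On CPM, KO and BM were clear of WT, and KO was also clear of BM, while Mixed overlapped WT. On TPM, KO (76.1 to 106.8) and BM (80.2 to 84.8) overlapped. Zbp1 was 3.86-fold higher in KO than in WT (log2 1.95, SE 0.124, edgeR adjusted p = 2.23e-09) and 2.73-fold higher in BM than in WT. Dhx58, which modulates the other helicases, had 93.9, 100.1 and 81.5 CPM in KO, 33.2, 35.7 and 33.4 in Mixed, 94.6, 92.4 and 99.8 in BM and 30.3, 30.7 and 31.5 in WT. On CPM, KO and BM overlapped each other and lay far above WT, and KO was 2.97-fold higher than WT (log2 1.57, SE 0.0753, edgeR adjusted p = 2.82e-13). On TPM, BM (93.0 to 98.3) lay above KO (55.5 to 63.9) for Dhx58. Ifih1, a sensor of long double-stranded RNA, had 54.8, 53.4 and 46.9 CPM in KO, 30.4, 26.1 and 28.9 in Mixed, 58.3, 55.6 and 61.6 in BM and 36.7, 35.0 and 29.4 in WT. Ifih1 had the smallest difference among the sensors, 1.54-fold higher in KO than in WT (log2 0.62, SE 0.0894, edgeR adjusted p = 8.70e-06), still without overlap. Ddx58 was 2.27-fold higher in KO and 1.78-fold higher in BM than in WT.

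The effectors act on the virus life cycle directly, and all 15 were higher in KO than in WT, with a median log2 fold change of 1.40. In BM, 13 of 15 were higher than in WT, with a median of 1.42. Oas3, an oligoadenylate synthetase whose product activates RNase L, had 179, 161 and 121 CPM in KO, 24.7, 24.2 and 24.9 in Mixed, 75.2, 81.5 and 86.6 in BM and 25.6, 27.5 and 14.4 in WT. KO lay above BM, and BM above Mixed and WT, in every library. Oas3 was 6.85-fold higher in KO than in WT (log2 2.78, SE 0.228, edgeR adjusted p = 1.13e-05). Ifit2, an RNA-binding protein that restrains viral translation, had 75.0, 85.1 and 60.01 CPM in KO, 15.2, 12.9 and 13.2 in Mixed, 62.6, 55.6 and 54.2 in BM and 15.2, 15.55 and 17.5 in WT. Ifit2 was 4.55-fold higher in KO than in WT (log2 2.19, SE 0.113, edgeR adjusted p = 4.43e-12), with KO and BM overlapping. Ifitm3, which hinders fusion of viral and cell membranes, was 2.25-fold higher in KO and 2.25-fold higher in BM than in WT.

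The effectors Eif2ak2 and Bst2 were higher in KO and not in BM. Eif2ak2 (PKR), a kinase that stops translation when it binds double-stranded RNA, had 134, 136 and 102 CPM in KO, 62.0, 64.2 and 63.1 in Mixed, 61.3, 73.4 and 64.5 in BM and 88.6, 89.1 and 73.6 in WT. On CPM, KO was above all other groups, while Mixed and BM were below WT in every library. Eif2ak2 was 1.48-fold higher in KO than in WT (log2 0.56, SE 0.102, edgeR adjusted p = 0.000316), the smallest difference among the effectors. It was lower in BM than in WT, by a log2 fold change of -0.33 (SE 0.103, edgeR adjusted p = 0.0099), and without BM 1 this was no longer called (log2 -0.28, adjusted p = 0.0540). On TPM, Eif2ak2 had 46.2, 38.2 and 30.4 in KO, 25.8, 28.4 and 27.6 in BM and 34.3, 31.7 and 23.1 in WT. KO and BM each overlapped WT on that scale. There, limma called neither BM over WT (log2 -0.10, adjusted p = 0.568) nor KO over WT (log2 0.36, adjusted p = 0.068). Bst2 (tetherin), which holds budding virions at the cell surface, had 117, 119.6 and 85.5 CPM in KO, 48.7, 52.8 and 49.7 in Mixed, 51.7, 55.2 and 53.5 in BM and 62.1, 63.6 and 60.6 in WT. Bst2 was 1.72-fold higher in KO than in WT (log2 0.79, SE 0.0925, edgeR adjusted p = 1.16e-06). In BM it was below WT in every library but not called (log2 -0.22, 95% interval -0.41 to -0.02, edgeR adjusted p = 0.0527); in 11 of 22 alternatives, DESeq2 among them, it was called lower.

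The feedback genes modify or restrain the response, and all 7 were higher in KO and in BM than in WT, with median log2 fold changes of 1.00 in KO and 0.65 in BM. Oasl1, which in mouse represses translation of the Irf7 message, had 39.5, 42.9 and 32.4 CPM in KO, 3.98, 4.01 and 4.09 in Mixed, 12.8, 12.7 and 13.3 in BM and 4.30, 4.47 and 7.09 in WT. On CPM the 4 groups were each separate, with KO at the top, then BM, WT and Mixed. Between Mixed and WT the margin was narrow and edgeR made no call. On TPM those 2 groups overlapped, at 2.47 to 3.74 in Mixed and 2.90 to 4.31 in WT. Oasl1 was 7.19-fold higher in KO than in WT (log2 2.85, SE 0.153, edgeR adjusted p = 2.00e-12), the largest of the 37. Usp18, a protease that removes ISG15 from proteins and blocks receptor signalling at IFNAR2, had 171, 155 and 109.5 CPM in KO, 26.1, 23.9 and 26.5 in Mixed, 113, 124 and 122 in BM and 32.1, 30.2 and 28.8 in WT. Usp18 was 4.77-fold higher in KO (log2 2.26, SE 0.133, edgeR adjusted p = 2.00e-08) and 3.95-fold higher in BM than in WT, with KO and BM overlapping. Isg15, the ubiquitin-like modifier itself, had 79.1, 69.7 and 48.4 CPM in KO, 10.9, 13.3 and 12.2 in Mixed, 21.0, 22.9 and 23.3 in BM and 16.3, 18.0 and 14.2 in WT. KO stood far above the rest, and BM was above WT by a narrow margin. Isg15 was 4.05-fold higher in KO than in WT (log2 2.02, SE 0.150, edgeR adjusted p = 2.30e-08) and 1.38-fold higher in BM (log2 0.47, SE 0.154, edgeR adjusted p = 0.0146). The BM call was lost without BM 2 (log2 0.42, adjusted p = 0.0717), without BM 3 (0.44, adjusted p = 0.0530) or without WT 3 (0.38, adjusted p = 0.0733).

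Adar, an RNA editing enzyme that keeps self RNA from activating MDA5, was the feedback gene with the smallest difference. It had 152, 144 and 129.6 CPM in KO, 85.0, 82.2 and 87.7 in Mixed, 124, 126 and 134 in BM and 76.4, 85.0 and 83.3 in WT. Adar was 1.74-fold higher in KO than in WT (log2 0.80, SE 0.0657, edgeR adjusted p = 2.17e-09) and 1.57-fold higher in BM than in WT. Trim30a, Herc6 (an ISG15 ligase in mouse) and Rtp4 were 2.00-, 1.77- and 1.77-fold higher in KO than in WT. The BM call of Rtp4 was lost without BM 2 (log2 0.52, adjusted p = 0.0524, against 0.60 with all libraries).

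The signalling genes were all 5 higher in KO and in BM, with median log2 fold changes of 0.87 and 0.63. Stat2, the ISGF3 subunit that carries the transactivation domain, had 173, 156 and 149.9 CPM in KO, 61.2, 52.6 and 54.6 in Mixed, 176, 168 and 164 in BM and 51.3, 55.0 and 51.5 in WT. On CPM, KO and BM overlapped, and both lay far above WT: 3.03-fold in KO (log2 1.60, SE 0.0688, edgeR adjusted p = 4.49e-14) and 3.22-fold in BM. On TPM, BM (66.9 to 75.9) lay above KO (50.2 to 60.1) for Stat2. Parp9, an ADP-ribosyltransferase family member that works with the ubiquitin ligase Dtx3l, had 108, 106 and 89.3 CPM in KO, 51.3, 52.7 and 55.4 in Mixed, 70.6, 72.8 and 67.9 in BM and 51.7, 51.9 and 48.4 in WT. Parp9 was 1.99-fold higher in KO (log2 1.00, SE 0.0725, edgeR adjusted p = 3.17e-10) and 1.39-fold higher in BM than in WT. Dtx3l had 111, 117 and 105 CPM in KO, 59.9, 64.6 and 59.7 in Mixed, 112, 109 and 121 in BM and 77.9, 73.2 and 70.1 in WT. Dtx3l was 1.51-fold higher in KO than in WT (log2 0.60, SE 0.0652, edgeR adjusted p = 1.86e-07), the smallest of the signalling genes. Exons of Parp9 and Dtx3l overlap on opposite strands, and the library kit does not mark strand, so reads from the overlap cannot be told apart. The same limit holds for other members: 11 of the 37 share exon sequence with another gene, 8 of them on the opposite strand. Besides Parp9 and Dtx3l, those 8 are Dhx58, Eif2ak2, Usp18, Oasl1, Adar and Ifi35.

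The other 6 members were all higher in KO and in BM, with median log2 fold changes of 1.30 and 1.62. Ifi44, a GTPase-like protein, was the least abundant member, with 2.501, 1.89 and 1.23 CPM in KO, 0.457, 0.364 and 0.385 in Mixed, 4.18, 1.40 and 2.33 in BM and 0.391, 0.402 and 0.564 in WT. Ifi44 was 4.08-fold higher in KO than in WT (log2 2.03, SE 0.435, edgeR adjusted p = 0.000751), with the widest error of the members named. Ifi27l2a, a small hydrophobic protein, had 113, 98.6 and 98.2 CPM in KO, 30.0, 29.0 and 34.9 in Mixed, 216, 205 and 243 in BM and 36.4, 32.9 and 28.5 in WT. KO was 3.18-fold higher than WT (log2 1.67, SE 0.0941, edgeR adjusted p = 5.15e-11) and BM 6.80-fold higher. Tor3a, a torsin family ATPase, had 71.6, 62.9 and 64.7 CPM in KO, 55.7, 46.5 and 46.7 in Mixed, 111, 128 and 114 in BM and 50.1, 49.6 and 48.0 in WT. Tor3a had the smallest difference of all 37 members, 1.35-fold higher in KO than in WT (log2 0.43, SE 0.0784, edgeR adjusted p = 0.00014), against 2.39-fold higher in BM. Epsti1, Xaf1 and Lgals3bp were 2.65-, 2.28- and 2.13-fold higher in KO than in WT.

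**Figure D2:**
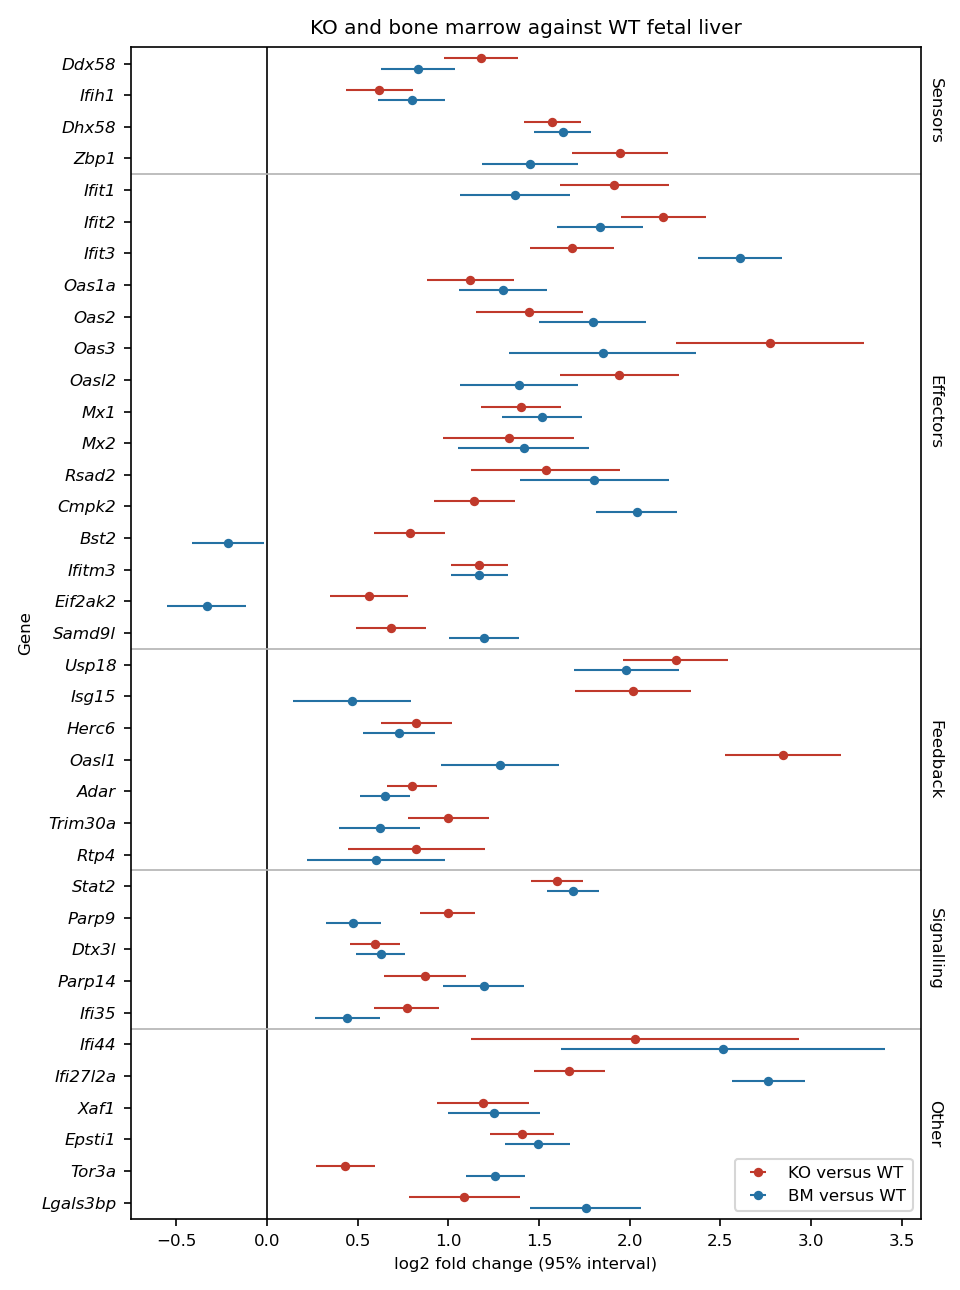
Points give the log2 fold change of each member in KO over WT (red) and in BM over WT (blue), with 95% intervals, by role down the page. All 37 KO points lie above 0, and the BM points of Bst2 and Eif2ak2 lie below it.

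KO was then ranked against BM. Of the 37 members, 14 were higher in KO than in BM, 8 were lower and 15 were not called, with a median log2 fold change of -0.03. Genes called in this comparison were 63.8% of all tested genes, 32% higher and 31.8% lower, and the median of all tested genes was -0.00. The mean CPM was highest in KO for 17 members and in BM for 20. By role, KO was higher in 2 of 4 sensors and lower in 0, higher in 6 and lower in 4 of 15 effectors, higher in 4 and lower in 0 of 7 feedback genes, higher in 2 and lower in 1 of 5 signalling genes, and higher in 0 and lower in 3 of 6 others. The split rested on the scale used. On the authors' deposited TPM, tested with limma on log2(TPM + 1), 6 members were higher in KO and 17 lower. In that test 63.5% of all tested genes were called in either direction, and their median was itself shifted by -0.17. Ddx58 and Adar, called higher on counts, were below 0 on that scale at -0.064 and -0.099, and neither was called (limma adjusted p = 0.563 and 0.254). Zbp1 (0.18), Ifit1 (0.28), Ifit2 (0.07), Oasl2 (0.28), Trim30a (0.10) and Ifi35 (0.03), also called higher on counts, were above 0 and not called on TPM.

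At the top of the ranking stood Oasl1, 2.95-fold higher in KO than in BM (log2 1.56, SE 0.140, edgeR adjusted p = 2.45e-09), and Isg15, 2.93-fold higher (log2 1.55, SE 0.146, edgeR adjusted p = 1.18e-07). Bst2 followed, 2.00-fold higher (log2 1.00, SE 0.0934, edgeR adjusted p = 1.31e-08), then Oas3, 1.90-fold higher (log2 0.92, SE 0.207, edgeR adjusted p = 0.00355). In these 4 genes every KO library lay above every BM library, and all 4 were also called higher on TPM. On CPM, KO lay wholly above BM in 11 members (33.7% of all tested genes) and wholly below it in 9 (34%).

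At the bottom stood Ifi27l2a, with a log2 fold change of -1.10 in KO over BM (SE 0.0879, edgeR adjusted p = 2.14e-09), a level 2.14-fold higher in BM. Ifit3, an RNA-binding partner of Ifit1, had 41.2, 39.9 and 35.4 CPM in KO, 8.23, 6.01 and 7.94 in Mixed, 70.7, 79.4 and 70.8 in BM and 10.8, 11.4 and 14 in WT. Its log2 fold change in KO over BM was -0.92 (SE 0.101, edgeR adjusted p = 5.38e-08). Cmpk2, a mitochondrial nucleotide kinase, had 49.9, 50.7 and 38.2 CPM in KO, 25.9, 25.9 and 22.4 in Mixed, 92.1, 84.4 and 81.5 in BM and 23.8, 19.9 and 19.3 in WT. KO stood between WT and BM, with a log2 fold change of -0.90 over BM (SE 0.101, edgeR adjusted p = 1.48e-07). Tor3a was likewise lower in KO than in BM, at -0.83 (SE 0.0765, edgeR adjusted p = 3.86e-09). Within the Ifit genes, Ifit1 was 1.46-fold higher in KO than in BM (edgeR adjusted p = 0.00137; not called on TPM) while Ifit3 was lower, and of the Oas genes Oas3 was higher while Oas2 was lower (log2 -0.35, edgeR adjusted p = 0.0249). Oasl1 and Oasl2 were both higher in KO, Oasl2 without a call on TPM, and Mx1 and Mx2 were both not called. The Oas2 call was lost without KO 2 (log2 -0.28), KO 3 (-0.32), BM 2 (-0.25) or BM 3 (-0.32). Ifit1, Ifit3, Oas1a, Trim30a and Ifi27l2a have close copies in the genome, so their counts are uncertain.

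Of the 15 members not called between KO and BM, several had narrow intervals. The 95% intervals of the log2 fold change were -0.15 to 0.15 for Ifitm3, -0.22 to 0.05 for Stat2, -0.21 to 0.09 for Dhx58, -0.16 to 0.10 for Dtx3l and -0.33 to 0.09 for Mx1, a GTPase that traps viral nucleocapsids. For Ifi44 the interval was -1.25 to 0.28, which includes a 2-fold lower level in KO, and its BM libraries ran from 1.40 to 4.18 CPM. Besides Oas2, the calls of Adar (log2 0.15, edgeR adjusted p = 0.048), Ifit2 (0.35, edgeR adjusted p = 0.00576) and Parp14 (-0.32, edgeR adjusted p = 0.01) rested on single libraries. Ifit2 was no longer called without KO 2 (log2 0.23, adjusted p = 0.0570), and Parp14 without KO 3 (-0.20, adjusted p = 0.0899) or BM 3 (-0.26, adjusted p = 0.0584). Adar was no longer called without KO 1 (log2 0.10), KO 2 (0.14) or BM 1 (0.12), nor without any Mixed library or WT 2 (0.15 in each).

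**Figure D3:**
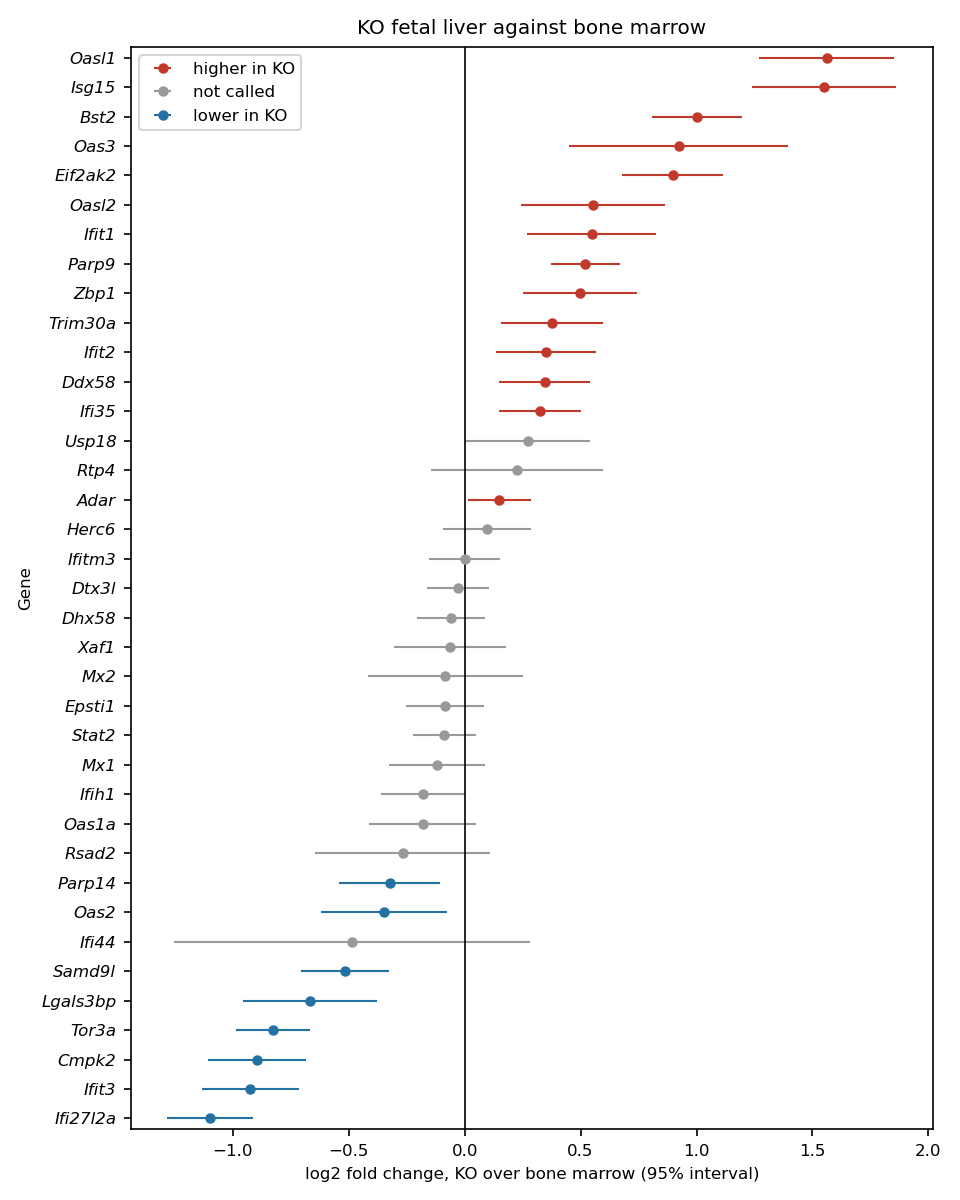
Members are ranked down the page by the log2 fold change of KO over BM, with 95% intervals, red where called higher in KO, grey where not called and blue where called lower. Oasl1 (1.56) and Isg15 (1.55) lead the ranking and Ifi27l2a (-1.10) closes it.

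Levels of different genes were compared per length, on the deposited TPM. Ifitm3 was the most abundant member in every group, with a mean of 3044 TPM in KO, 3638 in BM and 1510 in WT (SD 201, 18.8 and 214, n = 3 each). Ifi27l2a came next, with 378 TPM in KO, 968 in BM and 133 in WT. Isg15 ranked 5 of 37 in KO with 133 TPM, 18 in BM with 54.1 TPM and 8 in WT with 36.9 TPM. Ifi44 was the least abundant in all of these groups, with 0.85 TPM in KO, 1.40 in BM and 0.30 in WT.

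Between Mixed and WT, which share the genotype label, the 5 members called were all lower in Mixed: Ifit3, Rsad2, Dtx3l, Eif2ak2 and Ifit1. Genes called lower were 3.87% of all tested genes, and the median log2 fold change of the members was -0.11 against -0.01 for all tested genes. Rsad2 (viperin), which makes a chain-terminating nucleotide from the product of Cmpk2, had 16.96, 15.1 and 14.3 CPM in KO, 2.15, 2.55 and 1.88 in Mixed, 18.5, 20.6 and 16.8 in BM and 3.46, 4.74 and 7.66 in WT. Mixed was below every WT library, and the WT libraries themselves were spread widely. The log2 fold change of Rsad2 in Mixed over WT was -1.27 (SE 0.232, edgeR adjusted p = 0.00256). Cmpk2, which lies 12.8 kb from Rsad2 on chromosome 12, was not called (log2 0.24, 95% interval 0.01 to 0.47). Ifit3 had a log2 fold change of -0.71 in Mixed over WT (SE 0.126, edgeR adjusted p = 0.00168). Dtx3l was at -0.26 (SE 0.0662, edgeR adjusted p = 0.0163), Eif2ak2 at -0.41 (SE 0.103, edgeR adjusted p = 0.0235) and Ifit1 at -0.53 (SE 0.157, edgeR adjusted p = 0.0435). In Mixed, 11 members lay below every WT library (14.1% of all tested genes) and 2 above (12.9%). Without 1 library at a time, the count of called members ran from 2 to 10. The count was 2 without WT 1 or Mixed 1, and 3 without Mixed 2 or Mixed 3. It was 10 without KO 3. Of all genes of these fits, 3.07% were called without WT 1, 2.75% without Mixed 1, 6.78% without Mixed 2, 4.4% without Mixed 3 and 8.2% without KO 3. Without Mixed 1, for example, the log2 fold changes of Ifit1 (-0.36, adjusted p = 0.216), Eif2ak2 (-0.40, adjusted p = 0.110) and Dtx3l (-0.25, adjusted p = 0.0812) were no longer called, while Ifit3 and Rsad2 were called without any single library. Eif2ak2 was also lost without Mixed 2 (-0.42), Mixed 3 (-0.41), WT 1 (-0.37) or WT 2 (-0.36), and Dtx3l without Mixed 3 (-0.25) or WT 1 (-0.23). Ifit1 kept its call only without Mixed 3 or a KO library. With embryonic day as a covariate the count was 2, where 2.83% of the 14112 genes of that fit were called.

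Set against Mixed, the 37 members were all higher in KO (18.2% of all tested genes called higher, 36.7% in either direction), with a median log2 fold change of 1.37, and wholly above Mixed (23.7% of all tested genes). All KO libraries are E13.5 and all Mixed libraries E15.5. With embryonic day as a covariate, 33 of the 37 were called higher in KO than in Mixed, against 14% of the 14112 genes of that fit called in either direction. Samd9l (log2 0.34, adjusted p = 0.322), Rtp4 (0.85, adjusted p = 0.157), Ifi44 (2.51, adjusted p = 0.0572) and Tor3a (0.39, adjusted p = 0.102) were not called. On TPM, Samd9l (0.13), Ifi44 (0.36) and Tor3a (0.22) were not called either. In BM, 35 were higher than in Mixed (29.5% called higher, 58.4% in either direction) and wholly above it (32.4%), with a median of 1.49. The exceptions in BM were Bst2 (log2 0.09, 95% interval -0.11 to 0.28) and Eif2ak2 (0.07, 95% interval -0.15 to 0.30), which were not called.

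The pathway that leads to these genes was read from a list of 58 genes, of which 38 were tested. In KO, 21 were higher and 7 lower than in WT, with a median log2 fold change of 0.21, where 18.2% of all tested genes were higher, 38.1% were called and the median was -0.03. In BM, 27 were higher and 3 lower, with a median of 0.49, where 32.1% of all tested genes were higher, 31.9% were lower and the median was 0.00. Neither chain of the type I receptor was called in KO. Ifnar1 averaged 95.6 ± 6.48 CPM in KO and 95.3 ± 9.77 CPM in WT (SD, n = 3 each; log2 0.00, 95% interval -0.14 to 0.15), and Ifnar2 had a log2 fold change of 0.08 (95% interval -0.05 to 0.22). In BM, Ifnar1 was higher than in WT (log2 0.68, SE 0.0686, edgeR adjusted p = 1.66e-08). Of the other receptor chains, Ifngr1 was higher in KO than in WT (log2 0.48) and so was the scarce Ifnlr1, with 3.77, 2.26 and 2.11 CPM in KO and 0.112, 0.268 and 1.03 in WT (edgeR adjusted p = 0.00435). Ifngr2 and Il10rb were not called in KO (log2 0.14 and -0.07).

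Among the genes that carry the signal, Irf9, the DNA-binding subunit of ISGF3, was 1.65-fold higher in KO and 2.17-fold higher in BM than in WT. The kinases were uneven. Of those named above for the type I receptor, Tyk2 was higher in KO than in WT (log2 0.54) and Jak1 lower (-0.15, edgeR adjusted p = 0.0285). Jak2, which is not among those named, was also higher in KO (1.19). Irf7, a driver of the IFN-alpha genes, had 379, 339 and 268 CPM in KO, 92.2, 85.6 and 94.7 in Mixed, 282, 322 and 321 in BM and 103, 99.2 and 101 in WT. KO and BM overlapped, at 3.25-fold and 3.05-fold the WT level, and the difference between them was not called (log2 0.09, 95% interval -0.11 to 0.30).

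Genes that detect nucleic acid outside the 37 split. Tlr3, the endosomal receptor of double-stranded RNA, averaged 32.3 ± 6.27 CPM in KO, 1.19 ± 0.124 in BM and 4.02 ± 1.02 in WT; it was higher in KO (log2 3.00, edgeR adjusted p = 1.92e-11) and lower in BM (-1.75, edgeR adjusted p = 1.67e-06). Tlr7, a receptor of single-stranded RNA, ran the other way, with 2.74 ± 0.740 CPM in KO, 38.6 ± 3.55 in BM and 5.84 ± 0.626 in WT. Its log2 fold change was -1.09 in KO (edgeR adjusted p = 4.29e-05) and 2.72 in BM (edgeR adjusted p = 9.21e-13). Sting1, the adaptor of cytosolic DNA sensing, was higher in KO (log2 0.91) and in BM (0.54). Of the enzymes that clear nucleic acid, Trex1 (log2 1.21) and Samhd1 (0.75) were higher in KO, and Dnase2a (-0.54), Rnaseh2a (-0.38) and Rnaseh2b (-0.20) lower. Ikbke, a kinase that activates IRF proteins, was lower in KO (-0.73), as was the adaptor Azi2 (-0.43).

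**Figure D4:**
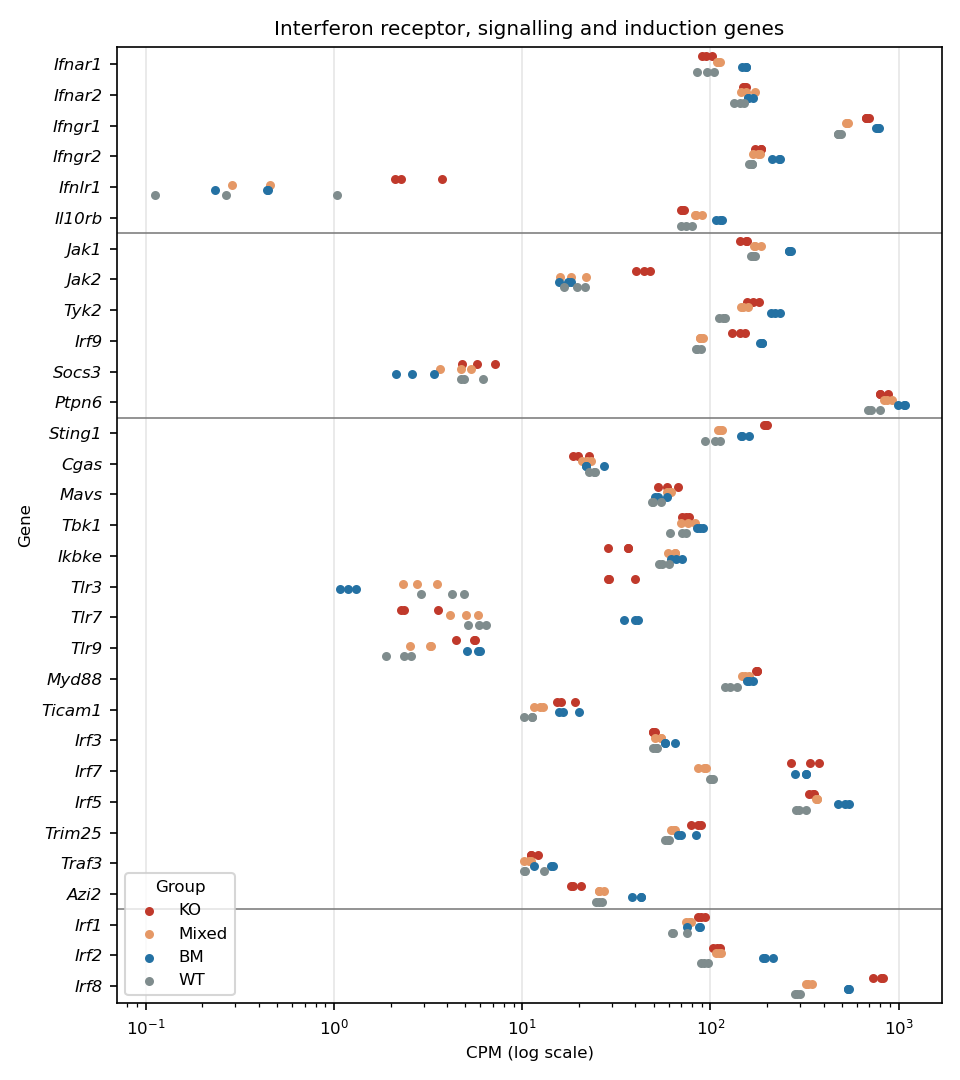
Each dot is a library's level in CPM on a log axis for tested receptor, receptor signalling, induction and other IRF genes, with KO, Mixed, BM and WT in separate colours. Ifnar1 and Ifnar2 of KO and WT lie on top of each other, while Irf7 and Irf9 of KO and BM lie to the right of Mixed and WT; the value of 0 for Ifnlr1 in Mixed 2 is not drawn.

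Interferon messages themselves were barely present. Of 19 ligand genes listed, 9 had no count in any library and none was abundant enough for the test. Ifnb1, which encodes IFN-beta, had 8, 5 and 7 counts in KO, 1, 0 and 1 in Mixed, 0, 0 and 0 in BM and 0, 2 and 0 in WT. All 3 KO libraries held more counts than any other library. With 20 counts in KO against 2 in WT, the ratio was 9.52 (exact 95% interval 2.31 to 84), which covers counting error only. Against BM, Ifnb1 was at least 2.03-fold higher in KO, taking 3 counts in each BM library as the floor. With no filter on low counts, edgeR gave adjusted p = 0.136 for KO against WT and 0.00578 for KO against BM. The highest total of any other ligand gene over the 12 libraries was 16 counts, for Ifnk.

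Markers of other cells were uneven between KO and WT. Calls are read against the 18.2% of all tested genes that were higher in KO than in WT and the 38.1% called in either direction. Of 10 genes that mark type 1 conventional dendritic cells, 9 were higher in KO than in WT. Their summed level was 1290 to 1441 CPM in KO, 516 to 545 in Mixed, 865 to 890 in BM and 443 to 457 in WT. Irf8 and Naaa made up most of each sum, with means of 785 and 203 CPM in KO, 540 and 241 in BM and 289 and 62.6 in WT. In BM, 4 of the 10 markers were higher than in WT and 2 lower (32.1% and 31.9% of all tested genes). Clec9a, a defining marker, was at 18.3 to 23.2 CPM in KO and 0 to 0.094 in WT; Tlr3 and Irf8 are on this list as well as in the pathway. Of 9 neutrophil markers, 5 were higher in KO, with sums of 10610 to 13362 CPM in KO and 4337 to 6153 in WT, while BM had 714 to 881. S100a8 and S100a9 made up most of the KO sum, with means of 5698 and 4605 CPM in KO and 3057 and 902 in WT. Camp, Ngp and Ltf went the other way, with means of 61.4, 239 and 230 CPM in KO and 80.2, 416 and 334 in WT, and were not called. Of 10 classical monocyte markers, 3 were higher and 6 lower in KO, with sums of 7666 to 8820 CPM in KO, 34903 to 35519 in BM and 10961 to 12364 in WT. Ly6c2, which encodes the sorting marker, averaged 1531 ± 156 CPM in KO, 1958 ± 45.1 in BM and 526 ± 31.1 in WT. Plasmacytoid dendritic cells are the main source of type I interferon, and 2 of their 6 tested markers were higher and 1 lower in KO. Their 10 listed markers summed to 77.0 to 83.5 CPM in KO, 116 to 119 in BM and 49.8 to 50.3 in WT, of which Klk1 was at 0 in KO and WT and the defining marker Siglech was at 0 to 0.105 CPM in KO and 0 to 0.141 in WT. Among the other genes of that list, 3 with higher means in KO were Lair1, Cox6a2 and Pacsin1, and Runx2 had a lower one (3.15 ± 1.12 CPM in KO and 6.63 ± 1.29 in WT). Lair1 averaged 34.1 ± 4.17 CPM in KO and 5.45 ± 0.561 in WT, Cox6a2 2.26 ± 0.399 in KO and 0.194 ± 0.181 in WT, and Pacsin1 0.981 ± 0.551 in KO and 0.0149 ± 0.0258 in WT (SD, n = 3 each). Summed erythroid markers were at 610 to 1382 CPM in KO and 975 to 1854 in WT, and tissue macrophage markers at 202 to 237 in KO and 199 to 265 in WT. Of the liver parenchyma markers, Trf was at 143 to 168 CPM in KO and 179 to 306 in WT, whereas the other 5 had higher means in KO; Afp, the next most abundant, averaged 25.3 ± 22.5 CPM in KO and 17.7 ± 19.1 in WT (SD, n = 3 each). None of these 6 genes was called by edgeR. Of 5 tested B cell markers 1 was higher and 1 lower, and the 8 listed summed to 130 to 144 CPM in KO and 79.8 to 87.5 in WT. T and NK cell markers summed to at most 0.105 CPM in KO and 0.0940 in WT. The part of these other cells in the levels of the 37 members was not tested.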

How the data were processed

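RNA-seq of 12 libraries was analysed from the authors' table of the whole series. Its estimated counts were deposited by the authors and were rounded to whole numbers here, since 28.5% of the nonzero counts were not whole (tolerance 1e-06). The table's TPM values were deposited by the authors and used for levels between genes and 1 alternative test. Per the submitters' processing notes, DRAGEN, STAR 2.7.9a, Subread, featureCounts 2.0.3 and Salmon 1.5.2 were run, in roles and an order that are not given, on the build mm10. Per the labels' protocols, the kit was SMARTer Ultra Low RNA, whose reads carry no strand, and reads of overlapping genes are therefore uncertain. Of 55774 entries, 287 repeated a gene and were removed. Genes were kept by filterByExpr (minimum count 10, minimum total 15), scaled by TMM and fitted with a mean per group over all 12 libraries (glmQLFit with robust estimation, glmQLFTest; common biological coefficient of variation 0.0917), and p-values were two-sided. Fits were tested on simulated data. Tools were DESeq2 1.42.0, edgeR 4.0.16, limma 3.58.1 and data.table (1.17.8) in R 4.3.3. Groups came from the sample titles. Gene positions came from GENCODE on GRCm38, which mm10 denotes, and promoters from RefSeq.

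The members and lists were chosen with earlier results of these data known. Values of every library were given, per role, for 3 members by log2 fold change of KO over WT (the top 2 and the last), for up to 4 members called between Mixed and WT with the smallest p, and for the 4 largest and 4 smallest of KO over BM. Alternatives were other size factors, library totals, filters, DESeq2, limma-voom, a test against a 1.5-fold change, fits to only the 2 groups compared, a replicate block, embryonic day, TPM, and leaving out each library. Values of 1 gene of the pathway list are not reported here.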

Additional observations from a re-analysis of the deposited data

How the results depend on the processing

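All 37 members stayed higher in KO than in WT in 20 of 23 alternatives, and 29 did in a test against a 1.5-fold change, 36 with embryonic day as a covariate and 34 on TPM, where Eif2ak2, Ifi44 and Tor3a were lost. Against WT, the median of all genes moved to -0.13 in KO with library totals and to -0.12 on TPM. The call of 5 members between Mixed and WT moved most: 9 with no filter on low counts, 9 with DESeq2, 3 on TPM, 2 with embryonic day, and 0 with edgeR's test against a 1.5-fold change, where 1 member had an unadjusted p under 0.05. The share of all genes called moved as well, from 8.07% in the main fit. It was 4.26% with no filter, 14.6% with DESeq2 (of genes given an adjusted p) and 4.88% on TPM. With embryonic day it was 2.83%, and against the 1.5-fold change 0%. Limma-voom also called 5, but without Ifit1 and with Samd9l, which was higher in Mixed. Against the 1.5-fold change, the 22 members called between KO and BM became 8. Called pathway genes became 12 in KO against WT (28 before), 13 in BM against WT (30 before) and 9 in KO against BM (27 before). Of all tested genes, that test called 9.2% in KO against WT (38.1% before), 29.1% in BM against WT (64% before) and 29.5% in KO against BM (63.8% before). On TPM, the KO over BM log2 fold changes of Ddx58 (-0.064) and Adar (-0.099) changed sign; the cause of these moves was not tested. Leaving out 1 library gave 37 to 37 called members in KO against WT, 2 to 10 in Mixed against WT, 35 to 37 in BM against WT, 37 to 37 in KO against Mixed, 35 to 35 in BM against Mixed and 19 to 23 in KO against BM, and 24 to 29, 28 to 31 and 26 to 29 pathway genes in KO against WT, BM against WT and KO against BM. Replicate numbers did not pair the samples: deviations of same-numbered libraries correlated at -0.04 to 0.07, none over 0.1. With the replicate block, 37, 6, 37 and 21 members were called in KO against WT, Mixed against WT, BM against WT and KO against BM. Of all tested genes, 37.8%, 7.99%, 63.4% and 63.3% were called there, in the same order.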
